A study of Mus musculus with 8 samples.

Results

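The T cell antigen receptor and its first signalling steps were followed through 9 genes, Cd3e, Cd3d, Cd3g, Cd247, Cd4, Lck, Zap70, Lat and Lcp2. The genes were taken by symbol from an RNA sequencing table of 27179 genes, and each of the 9 was found once. The antigen receptor has no enzyme of its own, and signals through the CD3 chains and the zeta chain that Cd247 encodes. When CD4 brings the kinase LCK to an engaged receptor, LCK phosphorylates the tails of these chains, the kinase ZAP-70 docks there, and ZAP-70 then phosphorylates the adaptors LAT and SLP-76 (the product of Lcp2), on which calcium and Ras signalling are built. T cells are known to remove receptor from their surface once it has been engaged, and mRNA levels do not measure that step.

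RNA was sequenced in 8 libraries of splenic CD4+ T cells, 2 in each of 4 groups that carry the replicate numbers 6 and 7. All mice were C.Cg-Foxp3tm2Tch/J, which carry an EGFP reporter at Foxp3 in controls and exposed animals alike, and all were 8 weeks old. Control (Ctr) offspring came from parents on unspiked water, and Cd offspring from parents given 10 ppm CdCl2 in the drinking water during mating and pregnancy; the offspring themselves drank normal water after birth. Cells from each kind of offspring were taken without stimulation (0 h) or after 16 h with beads that carry antibodies to CD3 and CD28. The beads thus bound the receptor complex to which several of the genes described here contribute. No library came from cells cultured for 16 h without beads. Stimulation therefore cannot be told apart from time in culture, and the word covers both below. The cells had been purified by negative selection for CD4+ T cells and then sorted by flow cytometry. They were thus selected as CD4+ cells, so the level of Cd4 mRNA is no independent test of the sort. The labels do not say that the 2 libraries of a group came from separate animals, or that libraries with the same number share one; if they do not come from separate animals, the p-values measure only the spread between these samples.

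The libraries held 15542732 to 25486791 reads on genes, and the values of the 9 genes rested on 3115 to 18343 reads each, for a counting error of 1.79% to 0.738%. The SD between the 2 libraries of a group had a median of 2.36% of the mean over the 9 genes and was 9.89% at most, for Lat. Levels are given as RPKM, reads scaled to the counted transcript length and to the reads on genes, which is a share of a library and not an amount per cell. Fold changes are on the log2(RPKM + 0.1) scale and come from limma on the 12605 genes whose RPKM averaged 0.5 or more over the libraries, among them all 9 genes. A gene is said to have risen or fallen at an adjusted p under 0.05 (Benjamini-Hochberg over all genes tested), and a stricter rule asked for a change of over 2-fold with an adjusted p below 0.01. In bulk cells, fewer cells that express a gene and less mRNA per cell cannot be told apart.

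The purity of the sort was read from markers of other cells. The B cell gene Ms4a1, the monocyte gene Cd14 and the globin genes Hba-a1 and Hba-a2 were at 0 in all 8 libraries, and 15 of 26 such markers were below 1 RPKM in every library. Others were present at low levels. Among B cell genes Cd79a was at 2.87 to 4.73 RPKM and Cd74 at 2.55 to 12.0 RPKM, and the myeloid gene Itgam reached 1.85 RPKM and the erythroid gene Alas2 1.72 RPKM. The NK cell gene Nkg7 reached 12.9 RPKM and the gamma delta T cell gene Trdc 10.2 RPKM. Cd8a stayed at or below 0.160 RPKM, whereas Cd8b1 was at 9.40 to 11.7 RPKM in every group. Foxp3, the factor of regulatory T cells, was at 4.48 to 7.69 RPKM. The study also describes the sorted cells as CD25-. Il2ra, which encodes CD25, was at 1.80 to 2.19 RPKM in unstimulated libraries. Stimulated libraries carried the activation genes Cd69, Il2ra, Il2, Irf4, Myc and Tnfrsf9 at a summed level of 1209 to 1307 RPKM, against 149 to 202 RPKM without stimulation.

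After stimulation 8 of the 9 mRNAs fell and 1, Zap70, rose, in control and in Cd offspring alike. The receptor chains and the coreceptor fell by 23% to 55%, Lck and Lat by 33% to 39%, and Lcp2 the least, while Zap70 rose 2.09-fold in control and 2.30-fold in Cd offspring. Among all genes tested, 27.8% fell and 36.9% rose in control offspring and 29.4% fell and 36.5% rose in Cd offspring, so that a call by itself is common in this comparison. Their median log2 fold change was -0.66 in control and -0.58 in Cd offspring, beside a median of 0.07 and 0.05 over all genes tested. Stimulated and unstimulated libraries did not overlap for any of the 9 genes in either kind of offspring, which was so for 83.1% of all genes in each. Together the 9 genes took 0.460% to 0.472% of the reads of unstimulated and 0.330% to 0.337% of the reads of stimulated control libraries, and 0.447% to 0.452% and 0.343% in the Cd libraries.

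**Figure D1:**
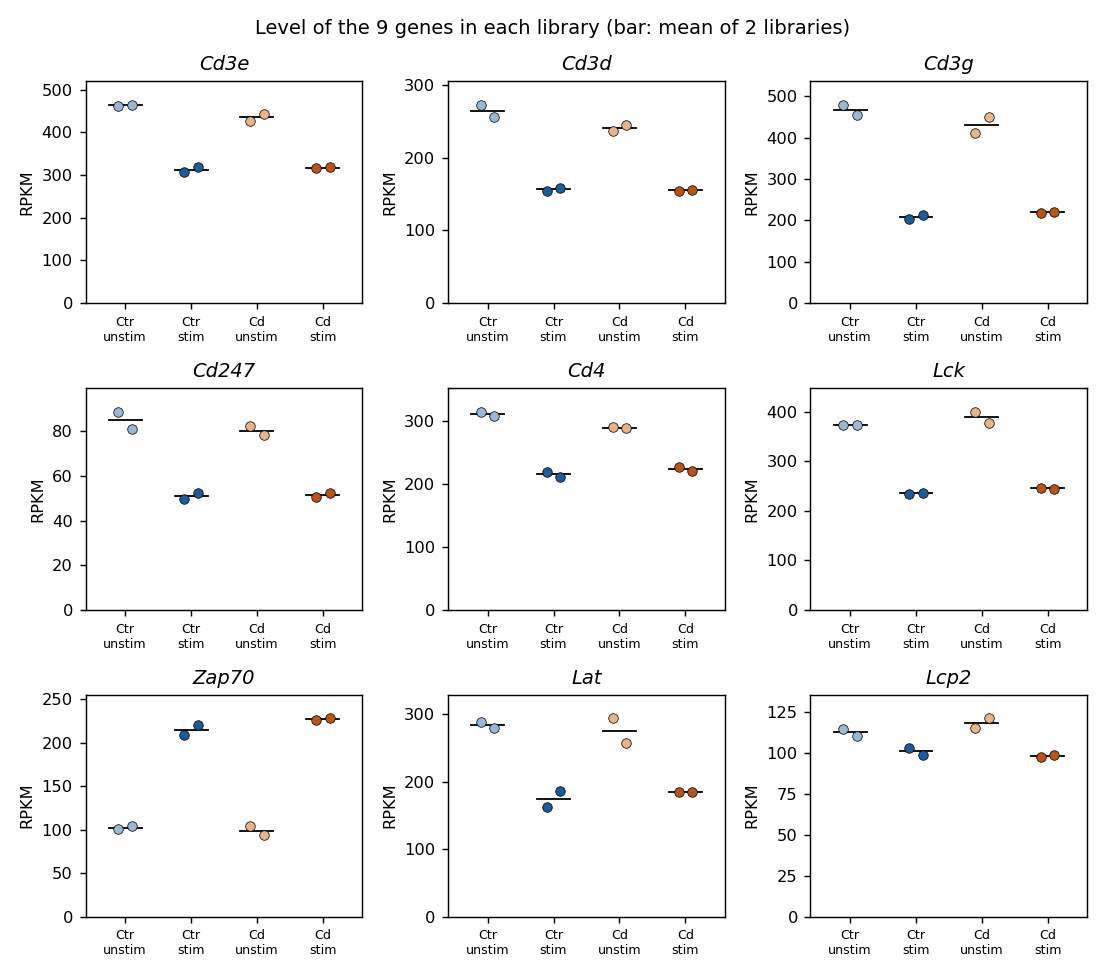
Level of each of the 9 genes in RPKM (vertical axis, from 0) in the 4 groups (horizontal axis), with a point for each of the 2 libraries and a bar at their mean. Stimulated libraries lie below the unstimulated ones in 8 panels and above them in the panel of Zap70, while control and Cd libraries of the same state lie close together.

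Cd3g, which encodes the gamma chain, had the largest fall of the 9 genes. It was at 479 and 455 RPKM in the unstimulated and at 204 and 213 RPKM in the stimulated control libraries. In the Cd libraries it was at 411 and 450 RPKM without and at 217 and 221 RPKM with stimulation. The level fell by 55.4% in control offspring, with a log2 fold change of -1.16 (SE 0.06, adjusted p = 2.95e-06 in limma), and by 49.0% in Cd offspring, with a log2 fold change of -0.97 (SE 0.06, adjusted p = 7.26e-06 in limma). Of all genes tested, 6.06% in control and 8.87% in Cd offspring had a lower log2 fold change. Cd3g passed the stricter rule in control offspring, where 7.17% of all genes did so with a fall, and missed the 2-fold limit in Cd offspring, where 7.24% did. The difference between the 2 falls did not pass its own test (below), and with quantile normalization the control value was -0.999 and just under the 2-fold limit.

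Cd3e and Cd3d encode the epsilon and delta chains, which each pair with another CD3 chain in the receptor. Cd3e was at 462 and 464 RPKM in unstimulated and 306 and 318 RPKM in stimulated control libraries, and in the Cd libraries at 428 and 443 RPKM and at 316 and 318 RPKM. Its log2 fold change was -0.57 in control (adjusted p = 3.42e-05 in limma) and -0.46 in Cd offspring (adjusted p = 0.000111 in limma). The fall was smaller than that of Cd3g by every library, since the ratio of Cd3g to Cd3e went from 0.981 to 1.04 in the unstimulated control libraries down to 0.666 and 0.671 after stimulation. For Cd3d the values were 273 and 256 RPKM in unstimulated and 155 and 159 RPKM in stimulated control libraries, and 237 and 245 RPKM and then 155 and 155 RPKM in the Cd libraries. The log2 fold change of Cd3d was -0.75 in control (adjusted p = 8.60e-06 in limma) and -0.64 in Cd offspring (adjusted p = 2.14e-05 in limma), between those of the other CD3 chains.

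These 3 genes are neighbours in the mouse genome (GRCm38, the build the study names as mm10). Cd3g (chromosome 9, 44969572 to 44980431, minus strand) and Cd3d (44981769 to 44987052, plus strand) point away from each other with 1338 bases between them, and Cd3e (44998735 to 45009663, minus strand) ends 11683 bases beyond the end of Cd3d. No other gene of the RefSeq table overlaps this stretch of 40092 bases. All 3 fell on stimulation.

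Cd247 encodes the zeta chain, which carries more of the phosphorylated motifs than any CD3 chain. Its unstimulated levels were 88.9 and 81.0 RPKM in control and 82.3 and 78.3 RPKM in Cd libraries. After stimulation they were 49.5 and 52.5 RPKM in control and 50.8 and 52.4 RPKM in Cd libraries. Cd247 had the lowest level of the 9 genes in each group, though its reads were scaled to 4604 bases, since 5 curated transcripts were counted as one gene, and the level per length depends on that. Its change does not, and was -0.73 on the log2 scale in control (adjusted p = 3.05e-05 in limma) and -0.64 in Cd offspring (adjusted p = 6.49e-05 in limma), close to the change of Cd3d.

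The coreceptor Cd4 fell from 315 and 308 RPKM to 219 and 212 RPKM in control offspring. In Cd offspring it fell from 291 and 289 RPKM to 227 and 221 RPKM. The log2 fold change was -0.53 in control (SE 0.05, adjusted p = 3.55e-05 in limma) and -0.37 in Cd offspring (SE 0.05, adjusted p = 0.000247 in limma). Cd4 and Cd3e kept nearly the same ratio to each other in every library, 0.651 to 0.682 without and 0.667 to 0.718 with stimulation. The states overlapped in control offspring. In Cd offspring they did not, with a ratio of 0.680 and 0.651 without and 0.718 and 0.696 with stimulation.

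Both kinases stand next to each other in the pathway, and their mRNAs moved in opposite directions. Lck, whose product starts the phosphorylation, was at 373 and 373 RPKM in unstimulated and 235 and 236 RPKM in stimulated control libraries. In the Cd libraries it was at 400 and 377 RPKM and then at 247 and 244 RPKM. The fall of Lck was -0.66 on the log2 scale in control (SE 0.05, adjusted p = 1.63e-05 in limma) and -0.66 in Cd offspring (SE 0.05, adjusted p = 1.70e-05 in limma).

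Zap70, whose product acts next, rose from 101 and 104 RPKM to 209 and 220 RPKM in control offspring. In Cd offspring it rose from 104 and 94.0 RPKM to 226 and 228 RPKM. The log2 fold change was 1.07 in control (SE 0.06, adjusted p = 3.71e-06 in limma) and 1.20 in Cd offspring (SE 0.06, adjusted p = 2.35e-06 in limma). Zap70 passed the stricter rule in both, as did 11.5% and 11.4% of all genes with a rise, and 88.6% and 91.2% of all genes had a lower log2 fold change. With median-of-ratios scaling between libraries the control value was 0.99, just under the 2-fold limit, and still a rise at an adjusted p under 0.05.

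**Figure D2:**
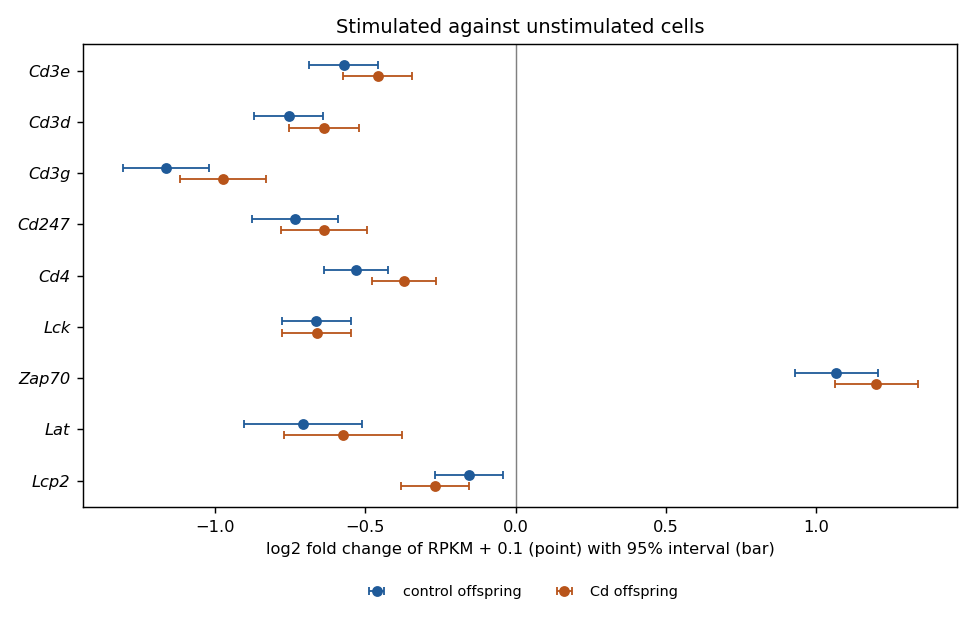
Log2 fold change of RPKM + 0.1 between stimulated and unstimulated cells (horizontal axis) for the 9 genes, with a point for the estimate and a bar for its 95% interval, in control and in Cd offspring. Zap70 alone lies to the right of 0, Cd3g lies farthest to the left, and Lcp2 is nearest to 0.

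The adaptor Lat fell, with the largest spread between libraries of the 9 genes. Its levels were 289 and 279 RPKM in unstimulated and 162 and 187 RPKM in stimulated control libraries, and 294 and 258 RPKM and then 184 and 185 RPKM in the Cd libraries. This is a log2 fold change of -0.71 in control (SE 0.08, adjusted p = 0.000198 in limma) and -0.58 in Cd offspring (SE 0.08, adjusted p = 0.000604 in limma). Lcp2, which encodes the adaptor that LAT recruits, changed the least. It was at 115 and 111 RPKM in unstimulated and 103 and 99.1 RPKM in stimulated control libraries, and at 115 and 121 RPKM and then 97.4 and 98.9 RPKM in the Cd libraries. The level of Lcp2 fell by 10.2% in control offspring (log2 fold change -0.16, SE 0.05, adjusted p = 0.0235 in limma) and by 16.9% in Cd offspring (log2 fold change -0.27, SE 0.05, adjusted p = 0.00191 in limma). The control call for Lcp2 was lost without unstimulated replicate 6 (adjusted p = 0.108), without stimulated replicate 7 (adjusted p = 0.134) and without the trend in limma (adjusted p = 0.0601).

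Some of these genes share ground with others. In the RefSeq table Cd247 overlaps Gm23402, Gm32999 and Pou2f1, and Lck, Zap70, Lat and Lcp2 each overlap 1 small or predicted gene (Mir8119, Gm18828, Mir7058 and 4930469K13Rik). The strand setting of the counting is not given in the sources used here. Reads from an overlapping gene on the other strand may therefore have been counted with those of the member.

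Markers of other lymphocytes moved with stimulation too. The summed level of 5 NK cell markers was 17.5 to 21.6 RPKM in unstimulated and 5.66 to 8.19 RPKM in stimulated libraries. Of these Ncr1 was at 0 in 7 of 8 libraries, while Klrb1c was at 3.15 to 4.35 RPKM without and 0.147 to 0.293 RPKM with stimulation, Klrk1 at 1.64 to 2.22 RPKM and 0.176 to 0.297 RPKM, Nkg7 at 10.6 to 12.9 RPKM and 3.80 to 6.01 RPKM, and Eomes at 2.05 to 2.53 RPKM and 1.40 to 2.03 RPKM. The summed level of 3 gamma delta T cell markers was 10.8 to 12.96 RPKM against 3.86 to 4.22 RPKM, most of it from Trdc at 8.53 to 10.2 RPKM against 3.48 to 3.87 RPKM. For 6 B cell markers it was 5.77 to 6.91 RPKM against 14.02 to 16.2 RPKM, nearly all from Cd74 and Cd79a. The sum of 6 myeloid markers was 1.91 to 2.09 RPKM against 0.426 to 0.597 RPKM, and that of 4 erythroid markers 0.365 to 1.72 RPKM against 1.04 to 1.38 RPKM. The 2 CD8 genes summed to 9.52 to 10.7 RPKM without and 10.3 to 11.8 RPKM with stimulation. For 4 regulatory T cell genes the sum was 14.9 to 19.2 RPKM against 140 to 173 RPKM, of which Il2ra and Ctla4, which activated T cells also express, made up most. Their part in the changes of the 9 genes was not tested.

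The changes reordered the levels. In unstimulated control cells Cd3g and Cd3e stood highest with overlapping libraries, followed by Lck, Cd4, Lat, Cd3d, Lcp2, Zap70 and Cd247, each apart from the next. In stimulated control cells Cd3e stood alone at the top, followed by Lck, then by Cd4, Zap70 and Cd3g, of which neighbours overlapped, and by Lat, Cd3d, Lcp2 and Cd247. The Cd offspring showed Cd3e and Cd3g (overlapping), Lck, Cd4 and Lat (overlapping), Cd3d, Lcp2, Zap70 and Cd247 without stimulation. After it the order was Cd3e, Lck, Zap70 and Cd4 (overlapping), Cd3g, Lat, Cd3d, Lcp2 and Cd247. Zap70 thus moved from the eighth place of the 9 genes to the fourth in control and to the third in Cd offspring. Against all genes tested, 569 lay above it in unstimulated and 200 in stimulated control cells, while for Cd3g the number went from 88 to 214.

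Ratios between members of the same library do not depend on a scaling that gives all genes of a library a common factor. Quantile normalization is not such a scaling, and the ratios were not computed under it. The ratio of Zap70 to Lck, in RPKM, was 0.271 and 0.278 in the unstimulated control libraries and 0.889 and 0.930 in the stimulated ones. It was 0.259 and 0.250 and then 0.915 and 0.933 in the Cd libraries, a mean rise of 3.47-fold. Zap70 to Cd247, the chain it docks on, rose 3.53-fold, from 1.14 to 1.28 to a range of 4.19 to 4.45. The other ratios moved by less. Cd3g to Cd3e changed to 0.682 of its unstimulated value, Lat to Lcp2 to 0.743, Lck to Cd4 to 0.864, Cd3d to Cd3e to 0.882, Cd247 to Cd3e to 0.888 and Cd4 to Cd3e to 1.05. An exact permutation test, two-sided, of each of these 8 ratios with stimulation permuted within each kind of offspring (36 arrangements) gave p = 0.0556 for 7 of them, which is the smallest this design allows, and p = 0.111 for Cd4 to Cd3e. After Benjamini-Hochberg adjustment over the 8 these exact values were 0.0635 and 0.111, so the test cannot reach a p under 0.05 here.

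**Figure D3:**
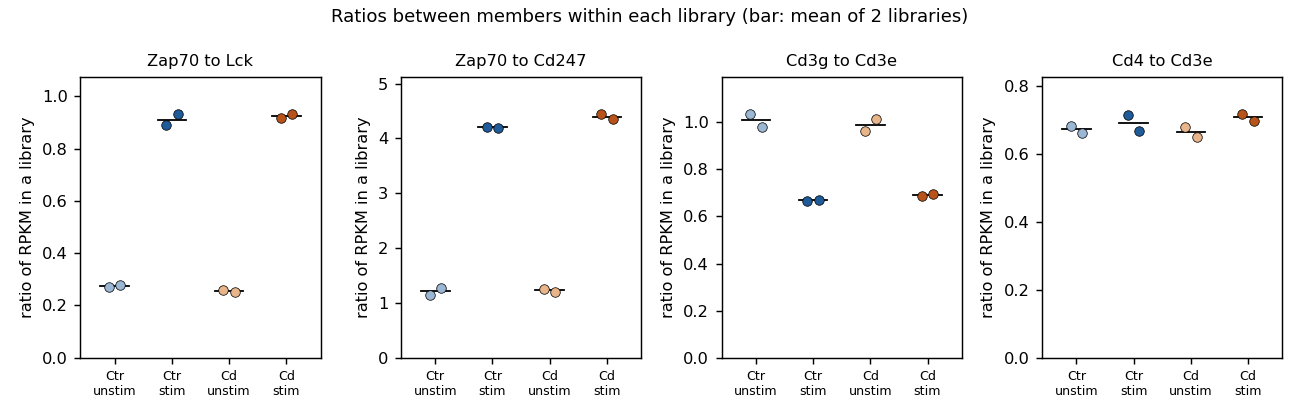
Ratio of the RPKM of a pair of members within each library (vertical axis, from 0) in the 4 groups, with a point for each of the 2 libraries and a bar at their mean. Zap70 to Lck and Zap70 to Cd247 are higher in all stimulated libraries, and Cd3g to Cd3e is lower. Cd4 to Cd3e overlaps between states in control but not in Cd offspring.

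The sequence just before the start of the gene that rose is set here beside those of genes that fell or hardly moved, to show which short motifs each holds. The 150 bases before the outermost annotated start of Cd3g (GRCm38.p6, chr9:44980432-44980581, minus strand), Lck (chr4:129573642-129573791, minus strand), Zap70 (chr1:36761648-36761797, plus strand) and Lcp2 (chr11:34046778-34046927, plus strand) follow, 5′ to 3′ toward the gene, from RefSeq. Lck and Zap70 have further annotated starts that are not shown. Capitals mark matches on either strand to GGAAGT (the core bound by Ets factors), TGTGGT (Runx factors) or CAGNTG (E proteins); TGANTCA (AP-1) and TATAAA (the TATA box) were also searched, and no marked matches overlap.
Cd3g: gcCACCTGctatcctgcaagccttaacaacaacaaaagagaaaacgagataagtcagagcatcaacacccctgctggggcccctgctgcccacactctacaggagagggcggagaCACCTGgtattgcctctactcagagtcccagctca
Lck: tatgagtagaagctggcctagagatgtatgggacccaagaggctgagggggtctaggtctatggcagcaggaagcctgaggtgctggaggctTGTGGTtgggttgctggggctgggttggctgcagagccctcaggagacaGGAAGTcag
Zap70: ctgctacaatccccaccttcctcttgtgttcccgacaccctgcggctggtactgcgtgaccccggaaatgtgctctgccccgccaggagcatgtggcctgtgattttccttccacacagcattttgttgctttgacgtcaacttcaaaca
Lcp2: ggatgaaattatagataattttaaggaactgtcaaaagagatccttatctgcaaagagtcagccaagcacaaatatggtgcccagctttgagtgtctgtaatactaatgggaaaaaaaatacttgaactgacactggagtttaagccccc

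The Cd3g window holds CAGNTG at 148 and 35 bases before the start, and that of Lck holds TGTGGT at 58 and GGAAGT at 9 bases before it. The windows of Zap70 and Lcp2 hold none of the 5 motifs. Of the 8 members in the RefSeq promoter table (all but Cd4), CAGNTG was found in 4, GGAAGT in 3, TGTGGT in 1, and TGANTCA and TATAAA in 0. The windows of Cd3e, Cd3d, Cd247 and Lat, not printed here, precede a start inside the gene's span. They lie partly within the gene, and that of Cd247 wholly. GGAAGT in Cd3e and Cd247, and CAGNTG in Cd3d, Cd247 and Lat, came from these windows. Among 32851 windows of the same length, CAGNTG was found in 30.1%, GGAAGT in 13.6%, TGTGGT in 8.4%, TGANTCA in 4.24% and TATAAA in 7.57%. A match is a run of letters and not a site shown to be bound.

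A further 64 genes of the same pathway were read from 4 lists, and 61 of them passed the filter on low values; Syk, the relative of Zap70, was below it, as were Gab2 and Rnf128. In control offspring 12 of the 61 rose, 34 fell and 15 did not pass the test, and in Cd offspring 12 rose, 36 fell and 13 did not pass. Of all genes tested 36.9% rose and 27.8% fell in control offspring and 36.5% rose and 29.4% fell in Cd offspring. Their median log2 fold change was -0.30 in control and -0.33 in Cd offspring, between that of the 9 members and that of all genes. By the stricter rule 2 of the 61 rose and 11 fell in each, beside 11.5% of all genes that rose and 7.17% that fell in control offspring and 11.4% and 7.24% in Cd offspring.

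Of 11 receptor chains and surface partners, 2 rose and 7 fell in each kind of offspring. The shares of all genes were 36.9% rising and 27.8% falling in control offspring, and 36.5% and 29.4% in Cd offspring. Thy1, a surface glycoprotein of T cells, had a log2 fold change of -1.23 in control and -1.03 in Cd offspring. Trat1, a transmembrane adaptor bound to the receptor, had -0.76 and -0.85. Trbc2, a constant region of the receptor beta chain, had -0.67 and -0.77, though reads of Trbc1 and Trbc2 are hard to tell apart because the genes are nearly the same. The genes that rose were Cd28, the costimulatory receptor that the beads also bind (0.48 and 0.40), and Ptprc, which encodes the phosphatase CD45 that activates LCK (0.34 and 0.20).

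Among 6 other kinases, 5 fell and 0 rose in each kind of offspring by limma. Of all genes, 27.8% fell and 36.9% rose in control offspring, and 29.4% fell and 36.5% rose in Cd offspring. At an unadjusted p under 0.05 there were 5 kinases in control and 6 in Cd offspring, beside 67.8% and 69% of all genes. Txk and Tec, both of the Tec family of kinases that act on phospholipase C, had a log2 fold change of -1.76 and -0.88 in control offspring, and in Cd offspring of -1.53 and -0.81. Prkcq, which encodes protein kinase C theta, had -1.11 and -1.02. Zap70 therefore rose while no other kinase of the list did.

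The 24 other adaptors and effectors were split, with 6 higher and 15 lower in control and 5 higher and 14 lower in Cd offspring. Among all genes 36.9% were higher and 27.8% lower in control offspring, and 36.5% and 29.4% in Cd offspring. Vav2, a guanine nucleotide exchange factor, stood at 2.68 ± 0.122 RPKM (SD, n = 2) in unstimulated control cells and at 16.8 ± 0.0340 RPKM (SD, n = 2) after stimulation, with a log2 fold change of 2.60 there and 2.43 in Cd offspring. Sh3bp2, an adaptor that binds ZAP-70 and SYK, had 1.69 and 1.84, and Sh2d2a, an adaptor that binds LCK, had 0.91 and 0.94. Themis, an adaptor needed in thymic selection, had -1.68 and -1.82. Skap1 and Fyb, whose products link SLP-76 to integrins, had -1.36 and -1.25 in control offspring, and in Cd offspring -1.32 and -1.13.

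Of 20 negative regulators 4 rose and 7 fell in control offspring, and 5 rose and 10 fell in Cd offspring, beside a rise in 36.9% and 36.5% and a fall in 27.8% and 29.4% of all genes. Ptpn6, which encodes the phosphatase SHP-1, had a log2 fold change of 0.87 in control and 0.73 in Cd offspring, and Sla, an adaptor that lowers receptor levels, had 0.84 and 0.90. The ubiquitin ligase gene Cblb rose by 0.40 in control and 0.31 in Cd offspring, and Ubash3b, a phosphatase that acts on ZAP-70, by 0.27 and 0.53. Sit1, a transmembrane adaptor, had -2.27 and -1.90, and Sla2, the relative of Sla, had -1.60 and -1.37. Dgka, a kinase that removes diacylglycerol, had -1.29 in control and -1.19 in Cd offspring, and Pag1, which anchors the LCK inhibitor CSK, had -1.16 and -1.27.

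**Figure D4:**
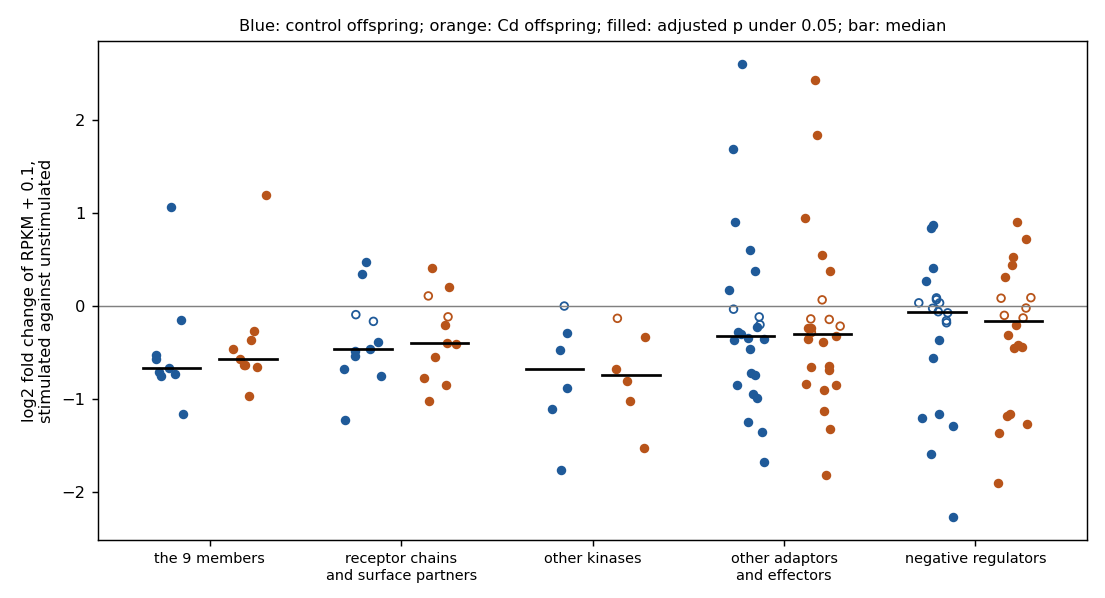
Log2 fold change of RPKM + 0.1 on stimulation (vertical axis) for the 9 members and the 4 lists of other pathway genes (horizontal axis), in control (blue) and Cd offspring (orange). Filled points passed an adjusted p under 0.05, open points did not, and bars are medians; the members' medians of -0.66 and -0.58 lie below 0, with Zap70 as the one member above it.

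Parental Cd was then compared within each state, which asks whether the exposure left a trace in the receptor pathway of the offspring. None of the 9 genes passed the test in unstimulated cells, where 0.896% of all genes did, and none in stimulated cells, where 0% of all genes did. Limma voom on reads recovered from the table also called 0 of the 9 in each state. At an unadjusted p under 0.05 there was 1 member in unstimulated cells (13.9% of all genes) and 0 in stimulated cells (3.28% of all genes). The 61 other pathway genes tested gave no call either, with 6 of 61 in unstimulated and 1 of 61 in stimulated cells at an unadjusted p under 0.05.

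The values in unstimulated cells were close. Log2 differences, Cd against control, were -0.09 for Cd3e, -0.13 for Cd3d, -0.12 for Cd3g, -0.08 for Cd247 and -0.11 for Cd4. The kinases and adaptors had 0.06 for Lck, -0.05 for Zap70, -0.04 for Lat and 0.07 for Lcp2. Cd3d was the member with an unadjusted p under 0.05 (adjusted p = 0.312 in limma). The libraries of the 2 groups did not overlap for 6 of the 9 genes, Cd3e, Cd3d, Cd3g and Cd4 lower and Lck and Lcp2 higher in Cd offspring, beside 20% of all genes lower and 22.3% higher. With quantile normalization the differences were 0 for Cd3e, 0.016 for Cd4 and 0.044 for Lat, so that the direction of these small differences depended on the scaling. The 95% intervals of the 9 genes together ran from 0.834-fold to 1.13-fold.

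In stimulated cells the differences ran from -0.04 for Lcp2 to 0.09 for Lat on the log2 scale. Zap70, the member that rose with stimulation, was at 209 and 220 RPKM in control and 226 and 228 RPKM in Cd libraries, a log2 difference of 0.08 (adjusted p = 1 in limma). The libraries did not overlap for 5 genes, Cd3g, Cd4, Lck and Zap70 higher and Lcp2 lower in Cd offspring, beside 16% of all genes higher and 20.6% lower. The 95% intervals ran from 0.897-fold to 1.22-fold.

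The response to stimulation was compared between Cd and control offspring with an interaction contrast. None of the 9 genes passed the test, as 0.357% of all genes did, and limma voom called 0 as well. Cd4 had the smallest p, with a difference in log2 fold change of 0.16 (adjusted p = 0.446 in limma), and was the 1 member at an unadjusted p under 0.05, beside 10.6% of all genes. Cd3g had the largest difference, 0.19 (95% interval -0.01 to 0.39, adjusted p = 0.490 in limma). The estimate was above 0 for 8 of 9 genes, all but Lcp2, and for 47.1% of all genes; for Lck it was 0.0023 and changed sign under quantile normalization. These estimates are built from the same 8 libraries as the comparisons above and add no further evidence to them. With 2 libraries against 2 an exact permutation test cannot give a two-sided p below 0.333, so the calls rest on the spread that limma takes from all 8 libraries.

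**Figure D5:**
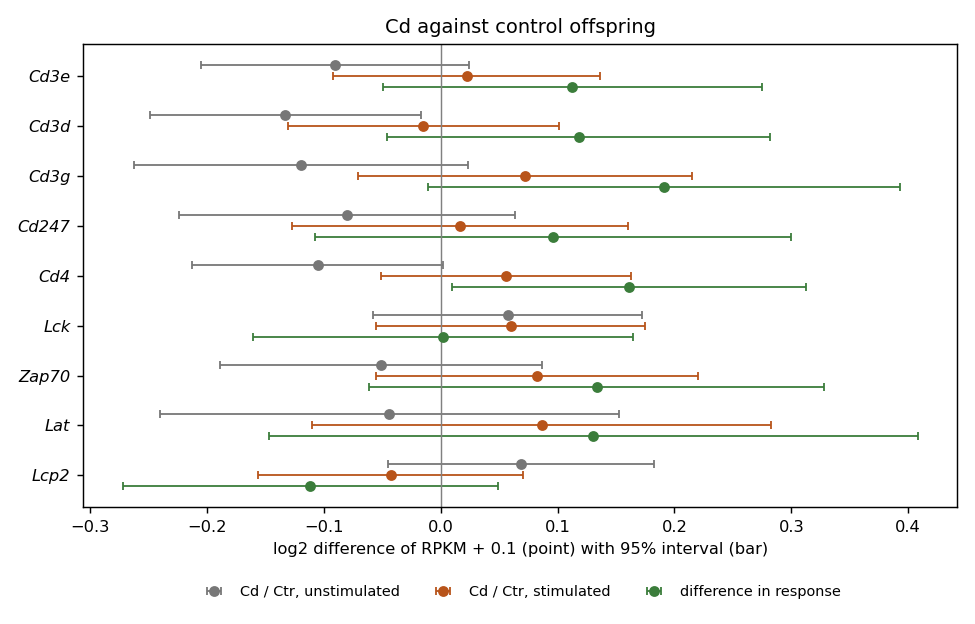
Log2 difference of RPKM + 0.1 between Cd and control offspring (horizontal axis) for the 9 genes in unstimulated cells (grey), in stimulated cells (orange) and in the response to stimulation (green), with 95% intervals as bars. No member lies farther than 0.19 from 0, and intervals leave out 0 for Cd3d in unstimulated cells and for Cd4 in the response, neither with an adjusted p under 0.05.

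For each of the 9 genes, the genes with the most similar pattern over the 8 libraries were looked up among the 8680 genes whose RPKM averaged 5 or more. The measure was the root mean square difference of log2(RPKM + 0.1) after each gene was centred on its own mean, so it holds the effect of stimulation and the spread between libraries. Most like Cd3e were Galnt2 (0.0228), Anxa5 and Deaf1, and most like Cd4 were Galnt2 again (0.0306), Ostf1 and Inpp5k. Cd3d was nearest to Arl6ip5 (0.0367), Zbtb38 and Ezr, Cd3g to Myl12b (0.0372), Cd96 and Itm2b, and Cd247 to Gnai2 (0.0261), Use1 and Coro1a. Lck was nearest to Arid1a (0.0227), Tln1 and Madd, Zap70 to Lmnb2 (0.0325), Hgh1 and Nol6, Lat to Cdk2ap2 (0.0225), Cnn2 and Mkl1, and Lcp2 to Dido1 (0.0145), Gosr1 and Ubr3. Among the members themselves Cd3d and Cd247 were the closest pair (0.0411), followed by Cd3e and Cd4 (0.0480), while Zap70 was at least 0.678 from every other member.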

How the data were processed

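The authors used subread to align reads of KAPA mRNA HyperPrep libraries to mm10, and featureCounts to count them per RefSeq gene (versions and the step from counts to values are not given in the sources used here). They deposited 1 table on a log2 scale, log2(RPKM + 1) + 0.0001 for each gene and library, read as such from the values. Tests had been planned for RPKM, so the values were transformed back first. Whole reads and totals were worked out from how low values step between libraries, for 17794 of 17794 genes above 0 in at least 2 libraries; 79.85% of low ratios (up to 8 reads) fell on ratios of whole reads, and on simulated data 99.8% of 17477 genes came out exact. The genes whose RPKM averaged 0.5 or more over 8 libraries were fitted in limma 3.58.1 (R 4.3.3) as log2(RPKM + 0.1) in 1 model of 4 group means, with a trend and Benjamini-Hochberg adjustment. Tested on simulated data for stimulation in control offspring (12541 genes), 96 of 100 genes changed by a log2 of 1, 15 of 100 changed by 0.5 and 15 of 12341 unchanged genes were called. Only 200 genes were changed there, whereas 8165 of 12605 were called in the data. The simulated spread between replicates was also wider than that of the 9 genes, whose SD had a median of 2.36% of the mean. These shares are therefore not the power for the 9 genes.

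Named genes are the 9 members; per list of pathway genes and stimulation comparison, up to 3 rising and 3 falling genes with the largest log2 fold change among those with an adjusted p under 0.05 and an average RPKM of 5 or more; and the 3 genes most like each member. The members and lists were chosen with earlier results of these data known. As alternatives, the pseudocount was 0.5 or 1, the filter was left out or set to 5 RPKM, a comparison was fitted on its own libraries, 2 other scalings, no trend, replicate blocks, limma voom on recovered reads, and each library left out. Sequences and positions came from RefSeq tables for GRCm38.p6, which held all 9 members by gene ID and 8 as promoters. Tables were made with Python 3.11.15, numpy 2.4.6, pandas 2.3.3 and scipy 1.17.1, and plots with matplotlib 3.10.9.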

Additional observations from a re-analysis of the deposited data

How the results depend on the processing

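All 9 members kept the direction of their change on stimulation under every alternative and with each library left out, in both kinds of offspring. Over settings other than leaving out a library, 463 of 468 log2 fold changes of single members and 118 of 126 counts and medians kept their direction and their side of the threshold or stayed within the spread between replicates. Scaling mattered most. With median-of-ratios scaling the median of the 9 members on stimulation was -0.74 in control and -0.63 in Cd offspring, and by the stricter rule 1 member passed in control (Cd3g) and 2 in Cd offspring (Zap70, and Cd3g at -1.03). Quantile normalization moved the median of all genes in control offspring from 0.07 to -0.03. With it the median of the members there was -0.46 and 1 passed the stricter rule (Zap70). The median Cd difference in unstimulated cells was 0 and that of the response 0.048. In unstimulated cells the difference of Cd3e became 0, and the sign changed for Cd4 (0.016) and Lat (0.044). The sign also changed for the response of Lck (-0.11). Lcp2 in control offspring lost its call without the trend (adjusted p = 0.0601). The cause was not tested. Depth limited these values little, since counting error was at most 1.79%; the 2 libraries per group limit them more.

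Fits without 1 library assume that the lone library of its group varies like the others. Counts of members called were 8 to 9 in control and 9 in Cd offspring for stimulation and 0 for the Cd comparisons and the response. By the stricter rule they were 2 in control and 1 to 2 in Cd offspring, 2 without unstimulated Cd replicate 6 (Cd3g at -1.04). Medians ranged from -0.67 to -0.60 and from -0.61 to -0.48 for stimulation in control and Cd offspring, from -0.110 to -0.044 and from -0.0051 to 0.059 for Cd in unstimulated and stimulated cells, and from 0.063 to 0.16 for the response. Changes of sign came only in values that had not passed the test, 10 of 216, for Cd against control and the response. In unstimulated cells the ranges were -0.12 to 0.020 for Zap70 and -0.14 to 0.050 for Lat (above 0 without Cd replicate 7). In stimulated cells they were -0.0051 to 0.049 for Cd3e, -0.026 to 0.059 for Cd247 and -0.014 to 0.19 for Lat (lowest without control replicate 6), and -0.033 to 0.0031 for Cd3d (above 0 without control replicate 7); Cd247 was also below 0, at -0.0066, without Cd replicate 7. The response of Lck ranged from -0.042 (without unstimulated Cd replicate 7) to 0.046, and was also below 0 without stimulated control replicate 6 (-0.0033) or Cd replicate 6 (-0.0060).

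Replicate numbers are shared between groups. Deviations of same-numbered libraries over 12605 genes had a correlation of -0.112 to 0.064 over all pairs of groups. Between unstimulated and stimulated libraries it was 0.064 in control and 0.0085 in Cd offspring. With 2 libraries per group this cannot show whether same-numbered libraries share an animal. The study used paired t-tests for its qPCR of stimulated against unstimulated samples, while the main fit here used no block. With a replicate block by number the members called were 9 in control and 9 in Cd offspring for stimulation and 0 elsewhere, with 2 and 1 by the stricter rule, as without it, and a block by animal label gave the same counts where it could be fitted.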
